A study of Mus musculus with 12 samples.

Results

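The acute-phase response and the handling of iron were followed here through 10 genes, found by matching the gene name in a table of 29428 genes. They are Lcn2, Saa3 and Hp, which encode secreted acute-phase proteins, Steap4, Slc39a14, Tfrc and Slc11a2, which encode a metal reductase and proteins of metal uptake, Fth1 and Ftl1, which encode the ferritin chains, and Slc40a1, which encodes the iron exporter ferroportin. STHdhQ7 and STHdhQ111 cells are immortal mouse striatal lines, from animals whose huntingtin carries 7 or 111 glutamine repeats, and each genotype is represented by a single line grown at a permissive culture temperature in medium with serum. Nontreated cells of the lines (Q7-C and Q111-C) and cells exposed for 24 h to murine IFNγ at 100 ng/mL together with LPS at 5 μg/mL (Q7-T and Q111-T) were sequenced as poly(A) RNA, with 3 libraries in each group. Genotype and line cannot be told apart in this design, and IFNγ and LPS were given together, so that neither agent was seen alone. The study calls the libraries of a group biological replicates, and the sources used here do not say how far apart their cultures were kept. The p-values set differences between groups against the spread between these libraries only.

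During infection or injury, inflammatory cytokines and transcription factors of the NF-κB, STAT and C/EBP families induce acute-phase proteins, many of which withhold iron from microbes or bind products of tissue damage. Inside the cell, iron enters with transferrin through its receptor or through divalent metal transporters, is reduced by enzymes of the Steap family, is stored in ferritin shells built of heavy and light chains, and leaves through ferroportin. Much of this control acts on the mRNA, where iron regulatory proteins bind a hairpin, the iron-responsive element, and block translation from the 5′ UTR of the ferritin and ferroportin mRNAs or protect the Tfrc mRNA through its 3′ UTR.

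A search of the untranslated regions for this hairpin is shown because it places the element in the mRNAs of 4 storage, export and uptake genes. It asked for a loop of CAGTGN whose last letter was not G, 5 paired bases above a bulged C, and at least 4 of 5 paired bases below it, with G-T pairs allowed. It had a match in 14 of 21901 protein-coding genes, or 0.0639%, and 4 of them were Fth1, Ftl1, Tfrc and Slc40a1, with 7 matches together. The matches are from GENCODE M21 transcripts on GRCm38, are written as DNA, 5′ to 3′, and carry the loop in capitals. They lie in the 5′ UTR of Fth1 (chr19:9982733-9982759, plus strand), of Ftl1 (chr7:45459780-45459806, minus strand) and of Slc40a1 (chr1:45925466-45925492, minus strand), and in the 3′ UTR of Tfrc (plus strand, chr16:32631220-32631246, chr16:32631599-32631625, chr16:32631664-32631690 and chr16:32631711-32631737, in this order).
Fth1: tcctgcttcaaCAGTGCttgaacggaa
Ftl1: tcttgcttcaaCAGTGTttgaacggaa
Slc40a1: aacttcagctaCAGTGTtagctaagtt
Tfrc at 32631220: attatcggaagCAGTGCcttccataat
Tfrc at 32631599: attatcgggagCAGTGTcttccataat
Tfrc at 32631664: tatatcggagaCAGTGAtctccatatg
Tfrc at 32631711: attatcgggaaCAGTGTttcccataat
The other 6 members, among them the uptake gene Slc11a2, had no match. This says only that these letters and pairs are not in the regions searched, and a hairpin of another shape would be missed. RNA levels do not show the block of translation that such a hairpin can give, so the values below are levels of mRNA and not of ferritin or ferroportin protein.

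The libraries held between 57505990 and 96417834 estimated counts. All 10 genes were among the 16127 that passed the filter on low values (at least 0.5 TPM in at least 3 libraries), Steap4 through its treated libraries only. Neutrophils, which store much Lcn2, were looked for with 7 measured markers, and their summed level was at most 0.341 TPM in the Q7-C libraries and 0.145 TPM in those of Q111-C, and between 1.11 and 1.48 TPM in Q7-T and 0.645 and 1.63 TPM in Q111-T. Camp, an antimicrobial peptide gene, was at 0 in every nontreated library and at a mean of 0.874 TPM in Q7-T and 0.699 TPM in Q111-T, and was the one marker of these that passed the filter, through its treated libraries only. The 7 microglia and macrophage markers summed to between 17.8 and 20.6 TPM in Q7-C, 11.9 and 18.2 TPM in Q7-T, 31.9 and 37 TPM for Q111-C and 46 and 62.5 TPM for Q111-T. Of the 2 that were tested, Tmem119 fell in both lines and Cd68, a lysosomal gene, rose in Q111-T vs. Q111-C, while Ptprc was at 0 in every library of Q7-T, Q111-C and Q111-T. The 7 astrocyte markers summed to between 15.6 and 41.7 TPM in STHdhQ7 libraries and 70 and 89.2 TPM in STHdhQ111 libraries, where Slc1a3 and Gja1 were higher in both comparisons of the lines, and Slc1a3 fell in Q111-T vs. Q111-C. Aldh1l1, the third that was tested, passed the filter only with the treated libraries, and its mean was 0.364 TPM in Q7-C, 0.416 TPM in Q7-T, 0.0384 TPM in Q111-C and 1.32 TPM in Q111-T, with adjusted p-values of 0.0459 (Q111-C lower than Q7-C) and 0.0116 (Q111-T higher than Q111-C). The part of these cells in the results was not tested. The labels call the cells striatal neuronal cells. Of 9 neuronal markers measured, 3 or 4 had a mean of at least 1 TPM in each group (among them Map2, Tubb3 and Foxp1), 2 to 4 were at 0 in every library of a group, and their sum lay between 19.4 and 96.6 TPM per library. Snap25, Syt1, Gad1, Gad2 and Bcl11b had group means of at most 0.282 TPM, and Rbfox3, Drd1 and Drd2 were not analysed here. Tubb3, a neuronal tubulin gene, rose in both lines, by 2.29 (SE 0.247, adjusted p = 0.000116) and 2.77 (SE 0.254, adjusted p = 1.53e-05) on the log2 scale, and Map2, which encodes a dendritic protein, fell in STHdhQ7 cells by 1.80 (SE 0.345, adjusted p = 0.00868) and was at 0.02 (SE 0.334, adjusted p = 0.99) in STHdhQ111 cells. The 7 mesenchymal markers summed to between 2639 and 3047 TPM in Q7-C and 1795 and 2117 TPM in Q7-T, and to between 3669 and 3795 TPM in Q111-C and 1478 and 1599 TPM in Q111-T. Of the 6 that were tested, 4 fell in STHdhQ7 cells (Col1a1, Col1a2, Col3a1 and Pdgfrb) and 6 in STHdhQ111 cells (these, Pdgfra and Vim). They thus changed with the treatment, in the opposite direction to the members that rose. Their part in the results was not tested. In bulk RNA, more cells that express a gene and more RNA per cell cannot be told apart.

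Some libraries stood apart from their group in ways that touch the members. In Q7-C replicate 1 and Q7-T replicate 2, the 2852 genes with transcripts over 5000 bases were lower than in the other libraries of the group by a median of −0.85 and −1.08 on the log2 scale, and Q111-T replicate 2 was lower by a median of −0.52. Tfrc (4890 bases), Slc11a2 (4415 bases) and Slc39a14 (5117 bases) had their lowest value of the group in these 3 libraries, whereas the short Ftl1 (968 bases) had its highest value there. A second pair, Q7-C replicate 3 and Q111-T replicate 2, held liver transcripts. The 7 hepatocyte markers summed to 33.6 and 55 TPM in them, with albumin (Alb) at 16.9 and 26.9 TPM, and to between 0.0246 and 4.38 TPM in the other 10 libraries, where Ttr and Ahsg were at 0. Values without a pair of libraries are given below where a call changed, and their part in the results was otherwise not tested.

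**Figure D1:**
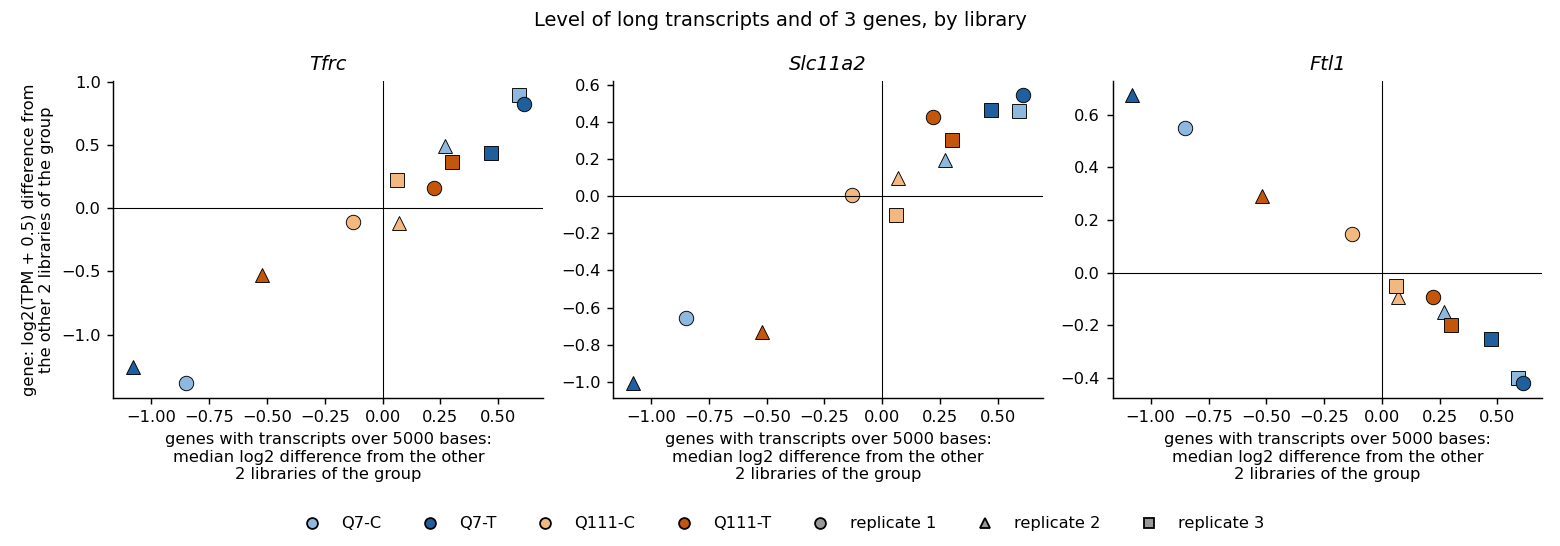
Each point is a library, placed by the median log2 difference of genes with long transcripts from the other 2 libraries of its group (x axis) and by the log2(TPM + 0.5) difference of Tfrc, Slc11a2 or Ftl1 from the same libraries (y axis). The libraries at −0.85 and −1.08 on the x axis lie at the bottom for Tfrc and near the bottom for Slc11a2, and at the top for Ftl1.

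To ask how both lines respond to IFNγ/LPS, each treated group was compared with its nontreated group. A gene is said to have risen or fallen when edgeR's quasi-likelihood test gave a Benjamini-Hochberg adjusted p under 0.05 over all genes tested, and is called a DEG when the fitted change was also at least 2-fold. In Q7-T vs. Q7-C, 4 of the 10 genes rose (Lcn2, Saa3, Steap4 and Slc11a2) and 0 fell, beside 3.61% and 1.74% of all genes tested. In Q111-T vs. Q111-C, 6 rose (the same 4, with Slc39a14 and Fth1) and 0 fell, beside 11.3% and 7.33% of all genes. Steap4 could be tested only because its treated libraries were high, so that the filter favours its place in both counts, and without it 3 and 5 of the other 9 genes rose. All of these changes were DEGs, beside 2.93% of all genes as higher and 1.11% as lower DEGs in STHdhQ7 cells and 8.28% and 2.96% in STHdhQ111 cells. For the difference between the responses, an interaction term, 0 of the 10 genes passed as higher and 1 (Steap4) as lower and as a DEG, beside 3.94% and 1.75% of all genes, or 3.52% and 1.2% as DEGs. The fitted Steap4 value rests on Q7-C libraries at 0 counts and gives no size of a difference. It did not pass in any limma fit. The TPM of 5 and 8 of the 10 genes did not overlap between treated and nontreated libraries of the respective line, beside 14.4% and 49.6% of all genes. The median gene moved by 0.003 and −0.005 on the log2 scale of the test.

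**Figure D2:**
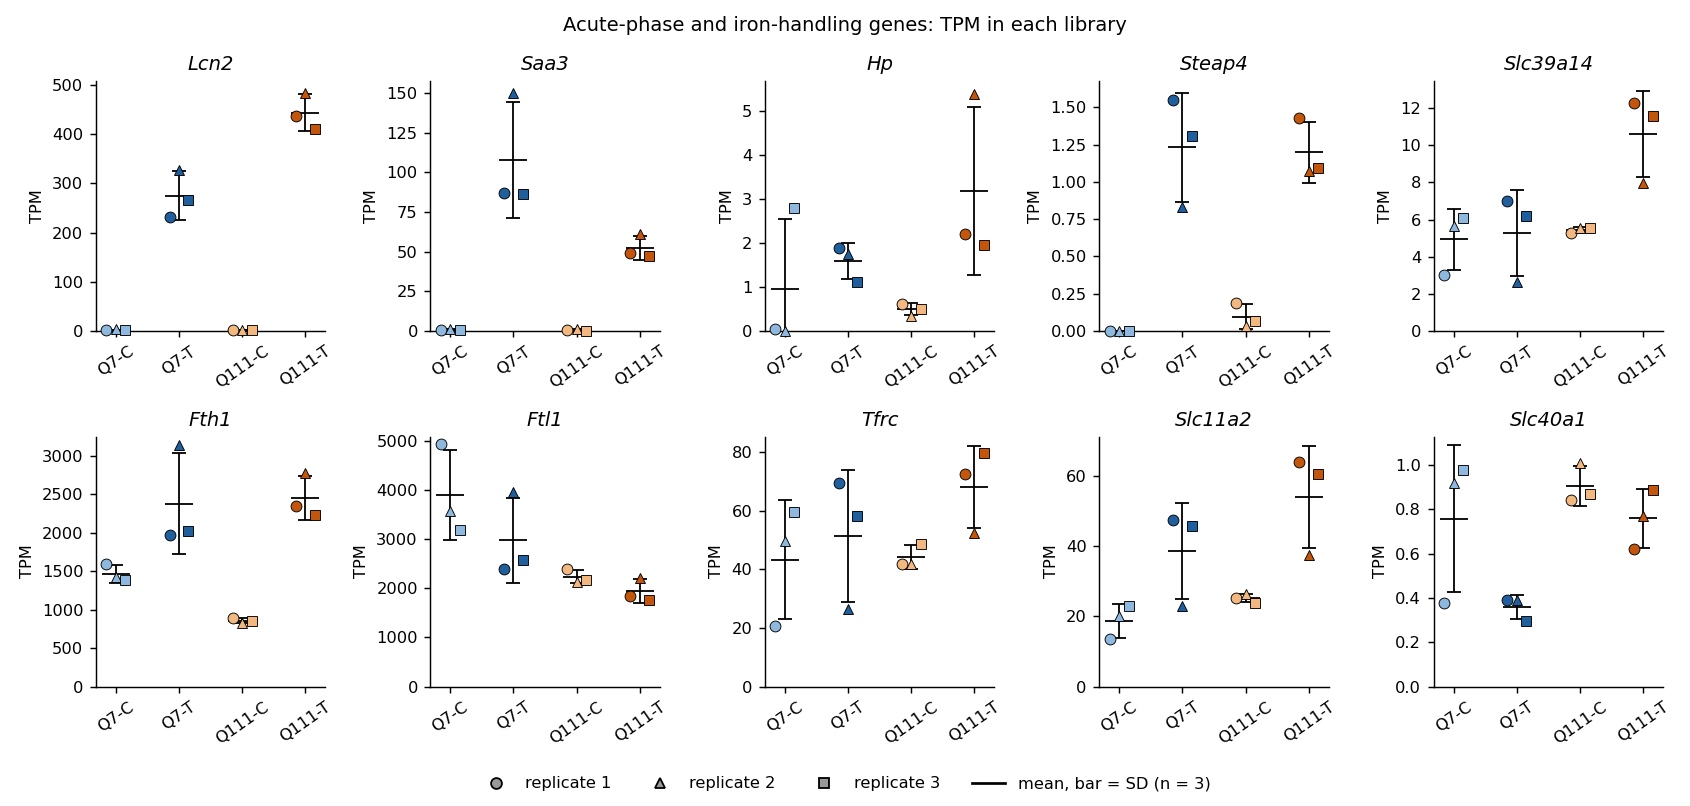
TPM of the 10 genes (y axes, linear from 0) in the 12 libraries by group (x axes), with points for libraries and lines for the mean and SD of 3 libraries. Lcn2 and Saa3 are near 0 in every nontreated library and between 47.3 and 484 TPM in the treated libraries, while Hp has a single high library in Q7-C and another in Q111-T.

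Lcn2 (chr2:32384633-32387797, minus strand) encodes lipocalin 2, which captures the iron-bearing siderophores of bacteria. Its promoter and those of Saa3 and Steap4 are shown because these genes had the largest responses among the members. The sequences are the 250 bases before the RefSeq transcription start on GRCm38.p6, read 5′ to 3′ on the strand of the gene. Each window reaches into the coordinates given here for its gene, whose start is not the RefSeq start. Lcn2 lies at chr2:32387740-32387989 (minus strand), Saa3 at chr7:46715677-46715926 (minus strand) and Steap4 at chr5:7960222-7960471 (plus strand). Capitals mark matches, on either strand and without overlap among them here, to GGG and CC with 5 bases of any kind between them (NF-κB), TTC and GAA with 3 between (the STAT site called GAS), TTGC and AA with 2 between (C/EBP), and GAAA and GAAA with 2 between (the interferon element called ISRE).
Lcn2: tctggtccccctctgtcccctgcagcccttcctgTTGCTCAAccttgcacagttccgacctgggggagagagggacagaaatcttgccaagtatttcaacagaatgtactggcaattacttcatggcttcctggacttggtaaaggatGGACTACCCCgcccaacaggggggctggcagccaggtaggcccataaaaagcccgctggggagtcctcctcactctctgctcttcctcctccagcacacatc
Saa3: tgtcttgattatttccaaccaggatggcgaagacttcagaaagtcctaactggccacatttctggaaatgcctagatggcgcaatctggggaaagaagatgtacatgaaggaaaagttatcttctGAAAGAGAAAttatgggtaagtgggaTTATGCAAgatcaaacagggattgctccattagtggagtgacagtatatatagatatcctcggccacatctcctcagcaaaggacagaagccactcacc
Steap4: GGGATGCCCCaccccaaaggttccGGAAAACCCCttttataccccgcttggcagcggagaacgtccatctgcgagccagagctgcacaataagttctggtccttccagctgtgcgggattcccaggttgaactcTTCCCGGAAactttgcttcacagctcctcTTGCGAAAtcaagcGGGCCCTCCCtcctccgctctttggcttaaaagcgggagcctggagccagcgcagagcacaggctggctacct
Counted from the RefSeq start, the Lcn2 window held a C/EBP match at −216 to −209 and an NF-κB match at −102 to −93. The Saa3 window held an ISRE match at −125 to −116 and a C/EBP match at −99 to −92. In Steap4 there were 3 NF-κB matches, a GAS match at −116 to −108 and a C/EBP match at −87 to −80. Among all 32851 promoters in the set, 45.8% held the NF-κB letters, 9.56% the C/EBP letters, 7.02% the GAS letters and 2.98% the ISRE letters. Promoters were found for 6 of the 10 genes, and all matches describe letters in these windows and not bound sites.

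Lcn2 was at 1.41, 3.04 and 1.69 TPM in Q7-C and at 231, 328 and 267 TPM in Q7-T. In STHdhQ111 cells it went from 2.02, 2.03 and 2.22 TPM to 437, 484 and 411 TPM. No treated library came near a nontreated one, and the lowest Q111-T library lay above the highest Q7-T library. On the log2 scale Lcn2 rose by 7.37 (SE 0.415, adjusted p = 5.18e-07) with treatment of STHdhQ7 cells and by 7.83 (SE 0.423, adjusted p = 3.15e-07) with that of STHdhQ111 cells, and the difference between these responses was 0.46 (SE 0.452, adjusted p = 0.632). From the sixth-ranked of the 10 genes by mean TPM in both nontreated groups, Lcn2 became the third in both treated groups, behind the ferritin chains only.

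Saa3 (chr7:46711998-46715700, minus strand) encodes a serum amyloid A that is made outside the liver. Its level was 0.858, 1.16 and 0.365 TPM in Q7-C and 87.1, 150 and 86.4 TPM in Q7-T. In Q111-C it was 0.882, 0.992 and 0.142 TPM, and in Q111-T 49, 60.9 and 47.3 TPM. Every treated library was above every nontreated one, and every Q7-T library was above every Q111-T library, the reverse of the order seen for Lcn2. Saa3 rose by 7.36 (SE 0.792, adjusted p = 0.000115) on the log2 scale in Q7-T vs. Q7-C and by 6.39 (SE 0.764, adjusted p = 0.00012) in Q111-T vs. Q111-C. The direct comparison Q111-T vs. Q7-T gave −1.57 (SE 0.607, adjusted p = 0.0607), and 9 of 26 alternative analyses put it under 0.05, among them those without Q7-T replicate 1 (0.0459) or Q111-C replicate 3 (0.0303). Without Q7-T replicate 2 it was −0.88 (adjusted p = 0.222), and without Q111-T replicate 1 or 3 the adjusted p was 0.166. Between the lines, the response of Saa3 differed by −0.98 (SE 0.89, adjusted p = 0.602).

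Hp (chr8:109575128-109579172, minus strand) encodes haptoglobin, which binds free haemoglobin and is made mainly by the liver. It was at 0.0524, 0 and 2.79 TPM in Q7-C, at 1.88, 1.76 and 1.12 TPM in Q7-T, at 0.619, 0.351 and 0.506 TPM in Q111-C and at 2.21, 5.38 and 1.95 TPM in Q111-T. The highest values of Q7-C and of Q111-T belonged to the libraries with liver transcripts. With all libraries, Hp did not pass the test for Q7-T vs. Q7-C (log2 fold change 1.14, SE 1.22, adjusted p = 0.747) or in Q111-T vs. Q111-C (2.83, SE 1.3, adjusted p = 0.171). These tests share an estimate of the spread over all groups. With only the STHdhQ111 groups in the fit, Hp passed at 2.82 (adjusted p = 0.00451). With only the STHdhQ7 groups it did not (1.14, adjusted p = 0.929). Without Q7-C replicate 3 and Q111-T replicate 2, a choice made after seeing the data, Q7-T vs. Q7-C passed (adjusted p = 0.0146) and Q111-T vs. Q111-C gave 2.04 (adjusted p = 0.0983). Leaving out Q7-C replicate 3 alone gave an adjusted p of 0.015 for the response of STHdhQ7 cells, and 2.81 (0.0227) for that of STHdhQ111 cells. The remaining Q7-C libraries held 4 and 0 estimated counts of Hp, under the floor of 12 counts taken as the limit of detection, and the Q7-T mean was at least 8.96-fold higher than this floor.

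**Figure D3:**
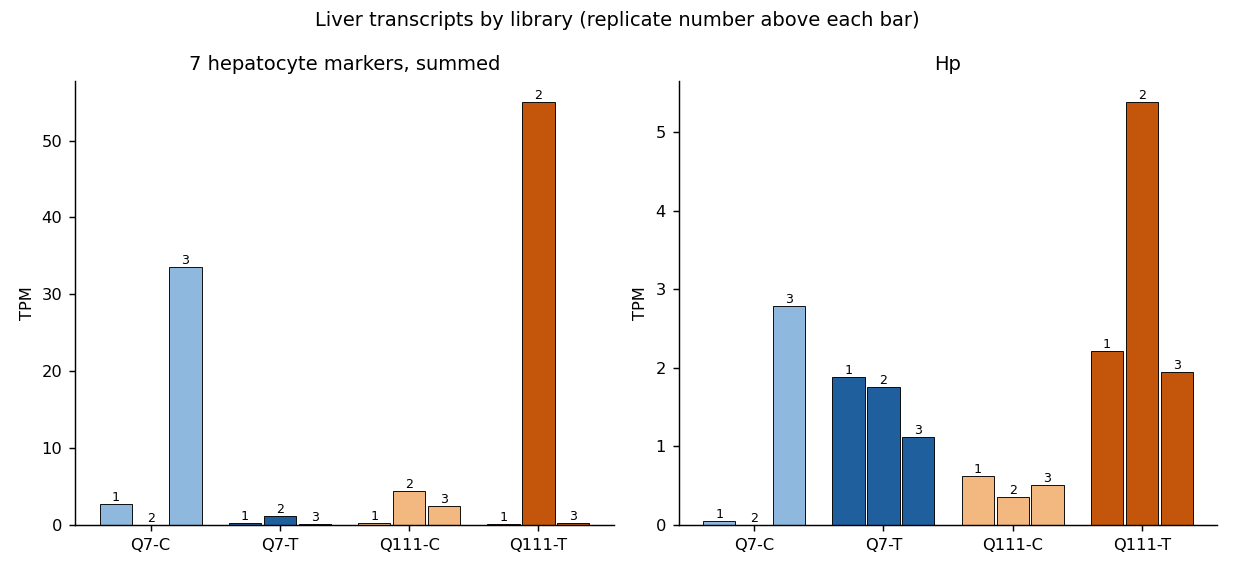
Summed TPM of 7 hepatocyte markers (left) and TPM of Hp (right) in each library, as bars from 0, with groups on the x axes and the replicate number above each bar. Q7-C replicate 3 and Q111-T replicate 2 reach 33.6 and 55 TPM on the left and have the highest Hp value of their groups on the right.

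Among the proteins of reduction and uptake, Steap4 (chr5:7960457-7982213, plus strand), a ferric and cupric reductase found on endosomes and the cell surface, had the largest response. It was at 0 in all 3 Q7-C libraries, with 0 estimated counts in each, and at 1.55, 0.834 and 1.31 TPM in Q7-T. In Q111-C it was at 0.189, 0.036 and 0.066 TPM (19, 4 and 8 estimated counts), and in Q111-T at 1.43, 1.07 and 1.09 TPM. The treated libraries of both lines overlapped each other and lay above every nontreated library. Relative to a floor of 12 counts per library, Q7-T was at least 14-fold higher than Q7-C (adjusted p = 0.000124). In STHdhQ111 cells Steap4 also rose, with a fitted value of 3.69 on the log2 scale (SE 0.583, adjusted p = 0.00179) over a Q111-C mean that lay under the floor, and the Q111-T mean was 11.6-fold the floor. The fitted value was 4.60 without Q111-C replicate 1 and between 1.00 and 2.78 in the limma fits, with every adjusted p under 0.05. Between the treated lines the difference was −0.41 (SE 0.508, adjusted p = 0.548).

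Slc11a2 (chr15:100387898-100424092, minus strand), the divalent metal transporter DMT1 that moves ferrous iron across endosomal and plasma membranes, had nearly equal log2 fold changes in both lines. Its values were 13.4, 20.1 and 22.8 TPM in Q7-C and 47.4, 22.9 and 45.7 TPM in Q7-T. In Q111-C they were 25.1, 26.2 and 23.9 TPM, and in Q111-T 64, 37.3 and 60.4 TPM. The low library of each treated group was one of those with low long transcripts, and in STHdhQ7 cells it lay just above the highest nontreated library. Slc11a2 rose by 1.20 on the log2 scale in Q7-T vs. Q7-C (SE 0.162, adjusted p = 0.000678) and by 1.18 in Q111-T vs. Q111-C (SE 0.162, adjusted p = 0.000318), and the responses differed by −0.01 (SE 0.225, adjusted p = 0.989). With limma on log2(TPM + 0.5) the STHdhQ7 response was 0.98 and no longer passed (adjusted p = 0.141). The gene overlaps the protein-coding gene Gm5475 on the opposite strand.

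Slc39a14 (chr14:70303469-70351425, minus strand), the zinc and iron importer ZIP14 that the liver induces in inflammation, passed the test in Q111-T vs. Q111-C and not in Q7-T vs. Q7-C. It was at 3.04, 5.67 and 6.09 TPM in Q7-C, at 6.98, 2.64 and 6.2 TPM in Q7-T, at 5.27, 5.53 and 5.57 TPM in Q111-C and at 12.3, 7.98 and 11.6 TPM in Q111-T. The STHdhQ7 groups overlapped, and the Q111-T libraries lay above all others. Its response was 0.24 on the log2 scale (SE 0.196, adjusted p = 0.652) in STHdhQ7 cells and 1.05 (SE 0.198, adjusted p = 0.00309) in STHdhQ111 cells. The test of the difference between the responses gave 0.80 (SE 0.278, adjusted p = 0.129) with all libraries, so that the response is not shown to differ between the lines. Without Q7-C replicate 1 and Q7-T replicate 2 that difference was 0.81 (adjusted p = 0.00966). With offsets for transcript length, which keep all libraries, it was 0.67 (adjusted p = 0.0131). In the other 23 of 25 alternatives it did not pass. Limma on log2(TPM + 0.5) gave 0.88 (adjusted p = 0.107) for the STHdhQ111 response.

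Tfrc (chr16:32608920-32632794, plus strand), the transferrin receptor, was at 20.5, 49.5 and 59.6 TPM in Q7-C and at 69.6, 26.3 and 58.2 TPM in Q7-T. It was at 41.8, 41.7 and 48.8 TPM in Q111-C and at 72.4, 52.5 and 79.6 TPM in Q111-T. The STHdhQ7 groups overlapped, with their lowest values in the libraries low in long transcripts, and the STHdhQ111 groups did not. The log2 fold changes of 0.42 (SE 0.249, adjusted p = 0.488) and 0.72 (SE 0.25, adjusted p = 0.0712) did not pass. Without Q7-C replicate 1 and Q7-T replicate 2, the STHdhQ111 value was 0.73 (adjusted p = 0.000752), in a fit that shares 1 estimate of the spread over all groups. Leaving out either of them alone also brought it under the threshold (0.0157 and 0.038).

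Fth1 (chr19:9980598-9985092, plus strand) encodes the ferritin heavy chain, which oxidises iron for storage. Its level was 1601, 1420 and 1382 TPM in Q7-C and 1976, 3138 and 2021 TPM in Q7-T. In Q111-C it was 897, 830 and 848 TPM, and in Q111-T 2350, 2775 and 2239 TPM. Neither line had an overlap between treated and nontreated libraries, and Q111-C was the lowest of the 4 groups. The log2 fold change was 1.63 (SE 0.359, adjusted p = 0.00766) in STHdhQ111 cells and 0.98 (SE 0.354, adjusted p = 0.181) in STHdhQ7 cells, where it did not pass and was 0.38 (adjusted p = 0.485) without Q7-T replicate 2. By TPM, Fth1 ranked between 78 and 81 among all genes in Q111-C and between 22 and 24 in Q111-T, and between 48 and 50 in Q7-C and between 27 and 38 in Q7-T. For Fth1 the lines differed in their response by 0.66 (SE 0.496, adjusted p = 0.513), and it was 1.05 (adjusted p = 0.012) without Q7-C replicate 1 and Q7-T replicate 2, and 1.25 (0.0274) without Q7-T replicate 2 alone.

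Ftl1 (chr7:45457944-45459884, minus strand) encodes the light chain, which favours the mineral core and has no ferroxidase site. It was at 4933, 3574 and 3182 TPM in Q7-C, at 2390, 3963 and 2581 TPM in Q7-T, at 2391, 2139 and 2181 TPM in Q111-C and at 1855, 2215 and 1766 TPM in Q111-T. Treated and nontreated libraries overlapped in both lines. Its log2 fold changes were −0.13 (SE 0.391, adjusted p = 0.925) in STHdhQ7 cells and −0.08 (SE 0.391, adjusted p = 0.934) in STHdhQ111 cells. Ftl1 has near-identical copies in the genome, of which Ftl1-ps1 (between 18.9 and 34.9 TPM as group means) and Ftl2-ps (between 11.6 and 18.9 TPM) passed the filter, so that reads may be split between them and its level is uncertain to that extent. A miRNA gene, Gm22133, and Gm10252, on the opposite strand, also overlap it.

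The ratio of both chains within a library does not depend on how libraries are scaled to each other. Fth1 stood to Ftl1 as 0.325, 0.397 and 0.434 in Q7-C, and as 0.375, 0.388 and 0.389 in Q111-C. After IFNγ/LPS the ratio was 0.827, 0.792 and 0.783 in Q7-T and 1.27, 1.25 and 1.27 in Q111-T. The nontreated lines thus overlapped, both treated groups were above them, and the treated lines were apart from each other, with more heavy than light chain mRNA per length in Q111-T only. As geometric means, the treated ratio was 2.09-fold that of the nontreated libraries for STHdhQ7 cells and 3.29-fold for STHdhQ111 cells, and Q111-T exceeded Q7-T 1.58-fold. The two-sided exact permutation test gave p = 0.1 for each of these 3 comparisons, which is the smallest p that 3 libraries against 3 allow, and p = 1 for Q111-C vs. Q7-C. Of the libraries low in long transcripts, Q7-C replicate 1 and Q111-T replicate 2 had the lowest ratio of their groups, and Q7-T replicate 2 lay between the other libraries of its group.

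**Figure D4:**
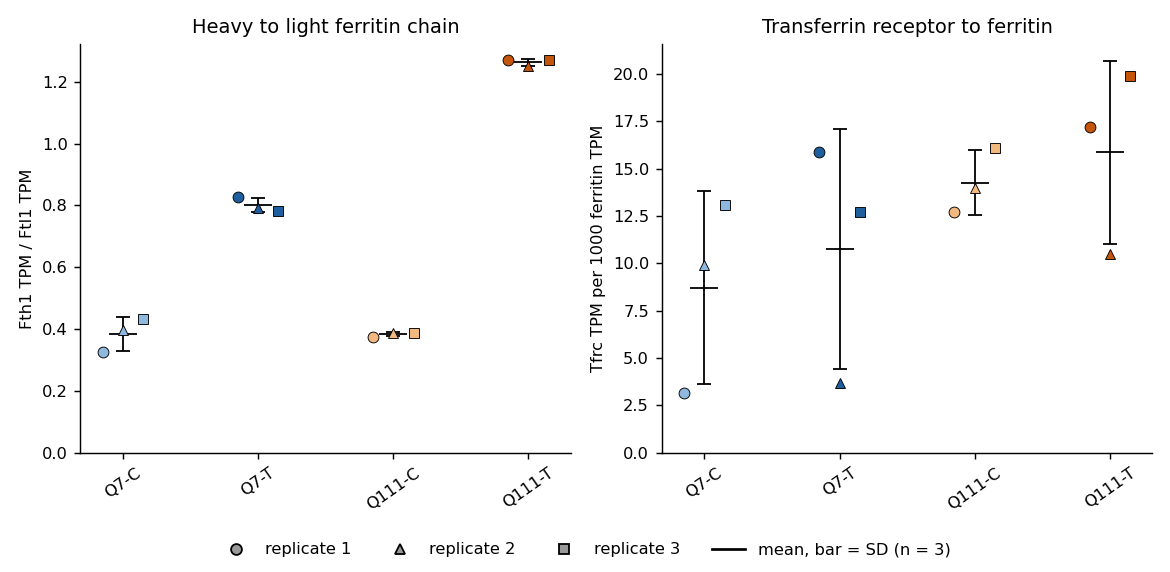
Left, TPM of Fth1 divided by TPM of Ftl1, and right, TPM of Tfrc per 1000 TPM of both ferritin chains, by group (x axes), with points for libraries and lines for the mean and SD of 3 libraries. The chain ratio forms tight and separate groups at 0.801 ± 0.0232 in Q7-T and 1.26 ± 0.00852 in Q111-T, while the transferrin receptor ratio overlaps between the groups.

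Uptake against storage was also expressed within a library, as Tfrc per 1000 TPM of ferritin. This ratio was 3.14, 9.91 and 13.1 in Q7-C, 15.9, 3.7 and 12.7 in Q7-T, 12.7, 14 and 16.1 in Q111-C and 17.2, 10.5 and 19.9 in Q111-T. All groups overlapped for the pairs compared, and the two-sided exact permutation test of treatment gave p = 0.6 for STHdhQ7 cells and p = 0.7 for STHdhQ111 cells. Its lowest values again belonged to Q7-C replicate 1 and Q7-T replicate 2.

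Slc40a1 (chr1:45908068-45926523, minus strand), ferroportin, was the least expressed of the 10 genes in both treated groups. It was at 0.378, 0.919 and 0.978 TPM in Q7-C, at 0.391, 0.392 and 0.296 TPM in Q7-T, at 0.841, 1.01 and 0.871 TPM in Q111-C and at 0.621, 0.772 and 0.886 TPM in Q111-T. The low Q7-C library, replicate 1, overlapped the Q7-T libraries, and the other 2 lay above them. Its response was −0.75 on the log2 scale (SE 0.338, adjusted p = 0.316) in STHdhQ7 cells and −0.15 (SE 0.335, adjusted p = 0.848) in STHdhQ111 cells. Without Q7-C replicate 1 and Q7-T replicate 2 the first of these was −1.37 (adjusted p = 0.00925), and the difference between the responses was 1.24 (adjusted p = 0.0318), against 0.61 (adjusted p = 0.529) with all libraries.

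**Figure D5:**
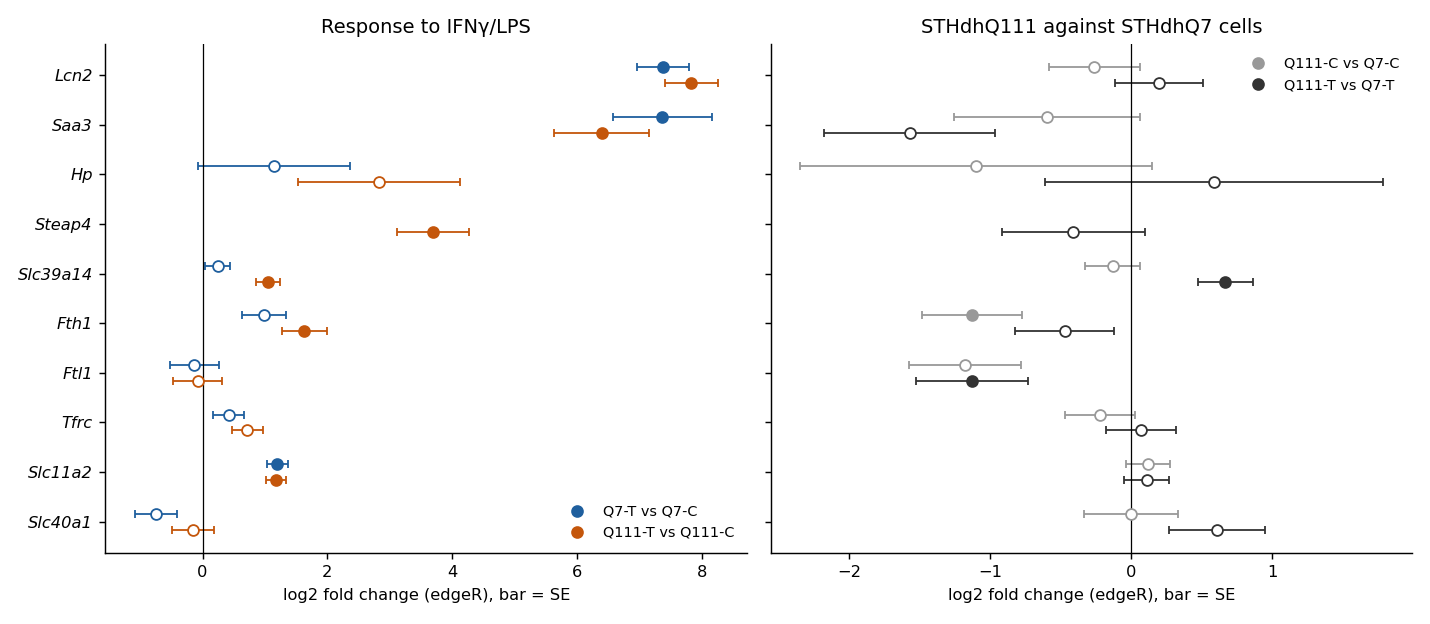
Log2 fold changes of edgeR (x axes, bars for the SE) for the 10 genes (y axis), left for the response of each line to IFNγ/LPS and right for the comparison of the lines, with filled points where the adjusted p was under 0.05. Steap4 is left out where its Q7-C libraries at 0 allow no fold change, and Lcn2 and Saa3 stand at 6.39 or more on the left in both lines.

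To ask whether the lines differed before and after the challenge, STHdhQ111 cells were compared with STHdhQ7 cells. In Q111-C vs. Q7-C, 1 of the 10 genes was higher (Steap4) and 1 was lower (Fth1), beside 11.1% and 11.6% of all genes tested. Both were DEGs by their fitted values, as were 7.62% and 7.61% of all genes. For Steap4 the Q111-C mean lay under the floor, so that a 2-fold difference between the nontreated lines is not shown. In Q111-T vs. Q7-T 1 was higher and 1 was lower, beside 19.8% and 18.7%, and the lower one was a DEG, as were 13.3% (higher) and 11.2% (lower) of all genes. These shares of the members were near or under those of all genes. The TPM did not overlap for 4 and 6 of the 10 genes, beside 51.4% and 46.3% of all genes. On the scale of TPM the median of all genes was 0.274 higher in Q111-C and 0.341 higher in Q111-T on the log2 scale, while the test centres it near 0 (−0.020 and −0.029), and the fold changes here are relative to that median. On this scale Fth1 had a log2 fold change of −0.47 (SE 0.351, adjusted p = 0.309) in Q111-T vs. Q7-T although its mean TPM was 2455 ± 283 in Q111-T and 2378 ± 658 in Q7-T.

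The ferritin chains lay near the threshold of the test. In Q111-C vs. Q7-C, Fth1 was lower, with a log2 fold change of −1.13 (SE 0.355, adjusted p = 0.0402), and Ftl1, at −1.18 (SE 0.396, adjusted p = 0.0524), did not pass, while in both cases every Q111-C library lay below every Q7-C library. The Fth1 call was lost on leaving out any one of the 6 nontreated libraries or Q111-T replicate 1 or 3, with an adjusted p between 0.0532 and 0.141, and on leaving out the libraries with liver transcripts (0.0597). Ftl1 passed in 11 of 26 alternatives, among them the one without Q7-C replicate 1 and Q7-T replicate 2, at −0.76 (adjusted p = 0.00582), and those without Q7-C replicate 3, Q7-T replicate 1 or Q7-T replicate 2 (0.046, 0.0394 and 0.00608). In Q111-T vs. Q7-T, Ftl1 gave −1.13 (SE 0.396, adjusted p = 0.0412), a call that 14 of 26 alternatives did not keep. It was lost without Q7-C replicate 2, any one Q111-C library, or Q111-T replicate 1 or 3, with an adjusted p between 0.0539 and 0.131, and without Q7-T replicate 2 its value was −0.51 (adjusted p = 0.194). Without Q7-C replicate 1 and Q7-T replicate 2 together Ftl1 kept the call at a smaller value of −0.48 (adjusted p = 0.0401).

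In the treated lines, Slc39a14 was higher by 0.67 on the log2 scale in Q111-T (SE 0.197, adjusted p = 0.0193), and Lcn2, at 0.20 (SE 0.313, adjusted p = 0.64), did not pass, although no Q111-T library overlapped a Q7-T library in the TPM of either gene. The Slc39a14 call was lost without Q111-T replicate 1 (adjusted p = 0.0653) or replicate 3 (0.054). Without Q7-C replicate 1 and Q7-T replicate 2, Lcn2 gave 0.70 (adjusted p = 0.025) and Slc40a1 gave 1.00 (adjusted p = 0.00694), against 0.61 (SE 0.338, adjusted p = 0.176) for Slc40a1 with all libraries. Leaving out Q7-T replicate 2 alone gave 0.67 (adjusted p = 0.0453) for Lcn2 and 0.97 (0.0357) for Slc40a1. Steap4 passed in Q111-C vs. Q7-C (adjusted p = 0.00194), but the Q111-C mean did not reach the floor of 12 counts per library and no fold between the nontreated lines is given. The call was absent in the 4 limma fits, with an adjusted p between 0.0535 and 0.57. Nontreated Lcn2 and Saa3 did not pass, with −0.26 (SE 0.326, adjusted p = 0.638) and −0.60 (SE 0.66, adjusted p = 0.589). With all libraries, Tfrc and Slc11a2 did not pass in either comparison of the lines, with values between −0.22 and 0.12, but without Q7-C replicate 1 and Q7-T replicate 2 Tfrc gave −0.48 (adjusted p = 0.0156) in Q111-C vs. Q7-C.

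Lists of related genes place these values in their pathways. Shares of all genes are given for the fit with all libraries only, so counts without some libraries have no share beside them. Of 25 other acute-phase genes, 14 were too low to be tested and 11 passed the filter, of which 3 (Orm1, Orm2 and Lbp) did so only with the treated libraries and could hardly be tested without being high there. Of the 25, 6 rose in Q7-T vs. Q7-C and 5 in Q111-T vs. Q111-C, beside 3.61% and 11.3% of all genes tested. In both comparisons 0 fell, beside 1.74% and 7.33% of all genes. The filter thus favours the counts of this list. Complement C3, the opsonin precursor, rose by 5.14 (SE 0.454, adjusted p = 2.10e-05) in STHdhQ7 cells and by 4.53 (SE 0.437, adjusted p = 2.21e-05) in STHdhQ111 cells. Lbp, which hands LPS to its receptors, rose by 3.68 and 3.49, the protease inhibitor gene Serpina3n by 3.75 and 2.79, and the pentraxin gene Ptx3 by 3.29 and 2.63. Ceruloplasmin (Cp), a ferroxidase that works with ferroportin, rose by 2.63 (SE 0.213, adjusted p = 1.07e-05) and 1.63 (SE 0.207, adjusted p = 0.000186), from 21.1 to 113 TPM and from 2.85 to 8.3 TPM. Orm2, an orosomucoid gene, was at least 17.3-fold higher in Q7-T than the floor in Q7-C (adjusted p = 0.0171), and was not called without the libraries with liver transcripts, where Orm1 was called and the count stayed at 6. The liver-typical genes Saa1, Saa2 and Hamp, the gene of the iron hormone hepcidin, did not pass the filter.

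Of 14 genes that induce or transmit the acute-phase response, 6 rose in STHdhQ7 cells and 10 in STHdhQ111 cells, beside 3.61% and 11.3% of all genes tested. In both lines 0 fell, beside 1.74% and 7.33%. The counts of genes that rose were 4 and 8 without the libraries with liver transcripts. Il1a passed the filter only with the treated libraries, so that the filter favours its place among the 10. Il6, the main inducing cytokine of the liver, went from a mean of 1.24 to 618 TPM in STHdhQ111 cells (log2 fold change 9.06, SE 1.19, adjusted p = 0.000248) and from 1.17 to 12.7 TPM in STHdhQ7 cells (3.58, SE 0.947, adjusted p = 0.0529), and the responses differed by 5.48 (SE 1.3, adjusted p = 0.031). Osmr, the gene of an IL-6 family receptor, and Socs3, a feedback inhibitor of that signalling, rose in both lines, as did Nfkb1. Stat3 rose in STHdhQ7 cells, Cebpb, Rela and Lifr rose in STHdhQ111 cells, and Il1a, at 0 in Q111-C, was at least 41.8-fold higher in Q111-T than its floor. Cebpd, a C/EBP factor, rose by 4.41 in STHdhQ7 cells and by 2.51 in STHdhQ111 cells, and its responses differed by −1.90 (SE 0.447, adjusted p = 0.0298). Nfkbiz, a cofactor of NF-κB that Lcn2 transcription is known to use, rose by 3.00 (SE 0.29, adjusted p = 4.53e-05) and 2.96 (SE 0.289, adjusted p = 2.46e-05). Without the libraries with liver transcripts, the difference between the responses was called for Cebpd and not for Il6 or Lifr, whose responses differed by 1.13 (SE 0.23, adjusted p = 0.0141) with all libraries.

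Of 23 other genes of iron uptake and trafficking, 20 passed the filter, and 3 of them rose in STHdhQ7 cells (Hfe, Steap1 and Slc25a37) and 5 rose in STHdhQ111 cells (Hmox1, Steap1, Slc25a37, Slc48a1 and Slc25a28), where Steap3 fell by 0.47 on the log2 scale (SE 0.131, adjusted p = 0.0273). Of all genes tested, 3.61% rose and 1.74% fell in STHdhQ7 cells, and 11.3% rose and 7.33% fell in STHdhQ111 cells. Without the libraries with liver transcripts the counts were 0 and 3 higher, and without Q7-C replicate 1 and Q7-T replicate 2 they were 5 and 10 higher. Hmox1, haem oxygenase 1, which frees iron from haem, went from a mean of 137 to 591 TPM in STHdhQ111 cells (2.22, SE 0.342, adjusted p = 0.000752) and from 220 to 286 TPM in STHdhQ7 cells (0.39, SE 0.327, adjusted p = 0.669). Its responses differed by 1.84 (SE 0.466, adjusted p = 0.0423), a call that was lost without the libraries with liver transcripts.

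Of 11 genes that sense iron and passed the filter, 1 rose in STHdhQ7 cells (Fbxl5), and 2 rose (Fbxl5 and Smad7) and 1 fell (Aco1) in STHdhQ111 cells. Of all genes tested, 3.61% rose in STHdhQ7 cells, and 11.3% rose and 7.33% fell in STHdhQ111 cells. These few calls are given gene by gene, and no result about the list is drawn from them. Fbxl5, whose protein targets an iron regulatory protein for degradation when iron is present, rose by 0.76 (SE 0.198, adjusted p = 0.0478) and 1.13 (SE 0.199, adjusted p = 0.00197), the first of which was not called without the libraries with liver transcripts. Smad7, an inhibitor of BMP signalling, rose by 0.63 in STHdhQ111 cells (SE 0.201, adjusted p = 0.0494), also a call not made without those libraries. Aco1, which encodes an iron regulatory protein that binds the hairpins shown above, fell by 0.73 in STHdhQ111 cells (SE 0.169, adjusted p = 0.0105) and was at −0.12 in STHdhQ7 cells (SE 0.169, adjusted p = 0.811). Among 10 zinc transporters of the Slc39 family that passed the filter, Slc39a4 and Slc39a6 rose in STHdhQ111 cells, beside 11.3% of all genes tested. Slc39a4 passed the filter only with the treated libraries, and Slc39a6 alone was called without the libraries with liver transcripts. No result about this list is drawn from these calls. Of 5 measured receptors and partners of Lcn2 and Hp, 4 passed the filter, and the Lcn2 receptor gene Slc22a17 was higher and Lrp2, the gene of megalin, lower in STHdhQ111 cells in both comparisons of the lines. Of all genes tested, 11.1% (nontreated) and 19.8% (treated) were higher in these comparisons, and 11.6% and 18.7% were lower.

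By the root mean square of the difference in log2(TPM + 0.5) over the 12 libraries, each gene centred on its mean, the pattern most like that of Lcn2 was Gm12250 (0.417), followed by Iigp1 and Tgtp2. Saa3 was most like Gbp4 (0.601), Tgtp1 and Psmb9, and Steap4 most like Gm11131 (0.113), Zmynd15 and H2-Eb1. Nearest to Slc39a14 were Zbtb26 (0.109), Tbk1 and Rbpj, and nearest to Fth1 were Eva1c (0.226), 4833438C02Rik and Bax. The 12 libraries share the treatment and the scaling, so that this likeness is a description only.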

How the data were processed

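Poly(A) RNA of 12 libraries was sequenced in pairs from stranded preparations. The authors trimmed reads with Cutadapt, mapped them with HISAT2 to GRCm38 and used StringTie and Ballgown for expression. They deposited TPM values and estimated counts per gene and library, and the TPM used here summed to between 688352 and 719623 per library. Low counts fell on multiples of 4 between 1.21 and 1.56 times as often as on other even numbers, so 1 read pair was assumed to give 4 counts, and 12 counts (3 pairs) was set as the floor, which covers counting error only. The members and gene lists were chosen with earlier results of these data known. Genes at 0.5 TPM or more in 3 or more libraries were tested with edgeR 4.0.16 (R 4.3.3; TMM, quasi-likelihood, Benjamini-Hochberg) on rounded counts, in 1 fit over all libraries. Limma 3.58.1, DESeq2 1.42.0, other filters and scalings, left-out libraries, a replicate block and length offsets were alternatives. The procedure was tested on simulated data. Of the 29428 gene identifiers, 29344 were in GENCODE M21. All members are named, with genes of the pathway lists that were called after treatment and, for 5 genes, the 3 most alike in pattern. Few of the abundant list genes that were not called, which the rule also allowed, are named. Other named genes were chosen after their values were seen. Ratios were compared by exact permutation tests in Python 3.11.15. Coordinates are those of the deposited table. In nontreated libraries Steap4 had 0 to 19 estimated counts, and Hp had 0 to 32 apart from 194 in Q7-C replicate 3.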

Additional observations from a re-analysis of the deposited data

Results flagged for a closer look

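The response of Steap4 differed between the lines by −6.72 on the log2 scale (SE 1.2, adjusted p = 0.0116, edgeR, quasi-likelihood, with the adjustment of Benjamini and Hochberg) and was noted because the effect of treatment differed between the cell lines. All 3 Q7-C libraries were at 0 and the Q111-C libraries held 19, 4 and 8 estimated counts, so that the value depends on the prior count and gives no size of a difference. With limma on log2(TPM + 0.5) it was −0.26 (adjusted p = 0.695), and across 25 alternatives the adjusted p ran from 0.000211 to 0.793.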

How the results depend on the processing

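Calls are DEGs by the fitted values here. In each of 26 alternatives, Lcn2, Saa3 and Steap4 kept an adjusted p under 0.05 after treatment in both lines, as did Fth1 in Q111-T vs. Q111-C. The counts of 4 (STHdhQ7) and 6 (STHdhQ111) members called after treatment stayed within 1.5 times. All genes called in Q7-T vs. Q7-C numbered 651, against 394 with only both groups in the fit and 411 with limma on log2(TPM + 1). In the interaction 760 genes were called, against 1303 with DESeq2, 1374 without Q7-C replicate 1 and Q7-T replicate 2, and 430 without Q7-C replicate 3 and Q111-T replicate 2. Members called in Q111-C vs. Q7-C went from 2 to 0 with limma on log2(TPM + 0.5), + 0.1 and + 1, to 1 with rescaled TPM and to 1 without Q7-C replicate 1 and Q7-T replicate 2, and to between 1 and 3 on leaving out each library. In Q111-T vs. Q7-T, 1 became 0 without a filter or with limma on log2(TPM + 1), 2 with DESeq2 or counts divided by 4, and between 0 and 2 on leaving out each library. In the interaction, 1 became 0 in the 4 limma fits and without Q7-C replicate 3 and Q111-T replicate 2, 3 without Q7-C replicate 1 and Q7-T replicate 2, and between 1 and 2 on leaving out each library.

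Direction turned for values that had not passed with all libraries. In Q111-C vs. Q7-C, the limma fits at 0.5, 0.1 and 1 TPM gave 0.08, 0.10 and 0.06 for Lcn2, 0.18, 0.20 and 0.16 for Slc39a14, and 0.16, 0.16 and 0.15 for Tfrc, and those at 0.5 and 0.1 gave 0.03 and 0.72 for Hp. Slc40a1 was −0.23 without Q7-C replicate 1 and Q7-T replicate 2 and −0.02 with length offsets. In Q111-T vs. Q7-T, Fth1 was 0.07 in the 3 limma fits and 0.17 without Q7-C replicate 1 and Q7-T replicate 2, Tfrc −0.06 without them and −0.11 with length offsets, and Slc11a2 −0.05 with length offsets. The Slc11a2 interaction was 0.07 in the 3 limma fits and 0.04 without Q7-C replicate 3 and Q111-T replicate 2. Without that pair, the fitted value of Hp in Q111-C vs. Q7-C was 3.40 and passed (adjusted p = 0.0366), over Q7-C libraries with 4 and 0 counts, where Q111-C was at least 1.88-fold higher than the floor, and without Q7-C replicate 3 alone it passed too (0.0433). Without the same pair Hp was −0.15 in Q111-T vs. Q7-T and −3.56 in the interaction, and Tfrc was 0.03 in Q111-C vs. Q7-C.

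On leaving out each library, Ftl1 ran from −0.74 to 0.29 in Q7-T vs. Q7-C, from −0.32 to 0.00 in Q111-T vs. Q111-C and from −0.37 to 0.65 in the interaction, and Hp from −1.64 to 3.41 between the nontreated lines, −0.15 to 0.98 between the treated lines and −2.80 to 2.25 in the interaction. Lcn2 ran from −0.41 to 0.08 and −0.03 to 0.67, and Tfrc from −0.47 to 0.03 and −0.09 to 0.21, in the comparisons of the lines. Fth1 ran from −0.72 to 0.14 in Q111-T vs. Q7-T, Slc40a1 from −0.23 to 0.18 in Q111-C vs. Q7-C and the Slc11a2 interaction from −0.13 to 0.11. The cause was not tested. The sources do not say whether libraries with the same replicate number share a culture or preparation. Same-numbered deviations correlated between −0.58 and 0.45 (7 of 18 pairs over 0.1). This cannot decide the question, because the libraries low in long transcripts carry different numbers in the STHdhQ7 groups. With the replicate block, 570, 1693, 2315, 3774 and 626 genes were called for treatment of STHdhQ7 and of STHdhQ111 cells, for the nontreated and the treated lines and for the interaction, against 651, 1813, 2456, 3959 and 760 without it. It gave Saa3 −1.43 (adjusted p = 0.0289) and Ftl1 −1.09 (0.0509) between the treated lines. Leaving out Q7-C replicate 1 with Q7-T replicate 2, Q7-C replicate 3 with Q111-T replicate 2, and the length offsets, were chosen after seeing the data.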
